A study of Mus musculus with 16 samples.

Results

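Interferon-inducible GTPases are proteins that hydrolyse GTP and that cells make in quantity after interferon signalling. The 10 genes described here are the guanylate-binding protein genes Gbp2b, Gbp2, Gbp3, Gbp7 and Gbp9, the very large inducible GTPase gene Gvin1, and the immunity-related GTPase genes Iigp1, Irgm1, Irgm2 and Igtp. All 10 were found by symbol among the 31960 genes of the deposited table, and they were chosen by their High against Low Activity differences in these same libraries. The strain differences of the 10 genes are therefore given as values, and their calls only as counts from which nothing is read, while differences between sexes, which did not choose them, were tested.

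Type II interferon acts through its receptor and the kinases Jak1 and Jak2 on genes with gamma-activated sites (GAS). Type I interferons act through a complex that contains Irf9 on the interferon-stimulated response element (ISRE). In mouse cells the guanylate-binding proteins and the effector Iigp1 gather on the vacuoles that enclose intracellular parasites and bacteria, and Irgm1, Irgm2 and Igtp (also called Irgm3) sit on host organelles and keep effectors such as Iigp1 inactive there.

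Polyadenylated RNA from the hippocampi of 16 mice aged 70 days was compared, with 4 libraries each from High Activity females (libraries 1 to 4), High Activity males (5 to 8), Low Activity females (9 to 12) and Low Activity males (13 to 16). High and Low Activity are inbred strains selected in opposite directions for open-field activity, a measure of anxiety-like behaviour, and both descend from a cross between BALB/cJ and C57BL/6. The mice carried no transgene and received no treatment, and each strain is represented by a single inbred line, so an effect of the selected behaviour and any other difference between the lines cannot be told apart. Estimated counts per library summed to between 20815456 and 28760896.

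Hippocampal markers were present in every library, with 8 genes summing to 1091 to 1541 CPM (counts scaled to a common library size, here with TMM composition factors). Microglial markers (8 genes) summed to 345 to 407 CPM and T and NK cell markers (8 genes) to 0.299 to 1.43 CPM. Thalamus and habenula markers (6 genes) summed to 369 and 238 CPM in High Activity males 6 and 8 and to 255 and 200 CPM in Low Activity males 14 and 16, against 82.4 to 151 CPM in the other 12 libraries. Values given below without High Activity males 6 and 8 kept Low Activity males 14 and 16. They therefore do not balance this signal between the strains. Haemoglobin genes (4 genes) summed to 681 to 847 CPM in High Activity males and to 213 to 474 CPM in Low Activity males, and choroid plexus markers (5 genes) ranged from 129 to 5263 CPM. In whole tissue, fewer cells of a type and less RNA per cell cannot be told apart.

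The GTPase genes fell into 2 sets by their counts. Gvin1 and Gbp2b had at most 3 counts in every library of one strain, so they were counted in essentially a single strain. The other 8 were counted at 10 or more in every library of both strains, so for them the comparison is one of levels. Of the 10 genes, 3 passed the edgeR threshold (adjusted p under 0.05) in females, where 7.26% of all genes did, and 4 passed in males, where 6.04% did; nothing is read from these shares, because the same contrasts chose the genes. The count was 2 in females without library 2 or without library 12, and 3 in males without High Activity males 6 and 8, each time through Gbp3. All 10 passed edgeR's filter on low counts, Gvin1 and Gbp2b only through the strain that had counts.

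**Figure D1:**
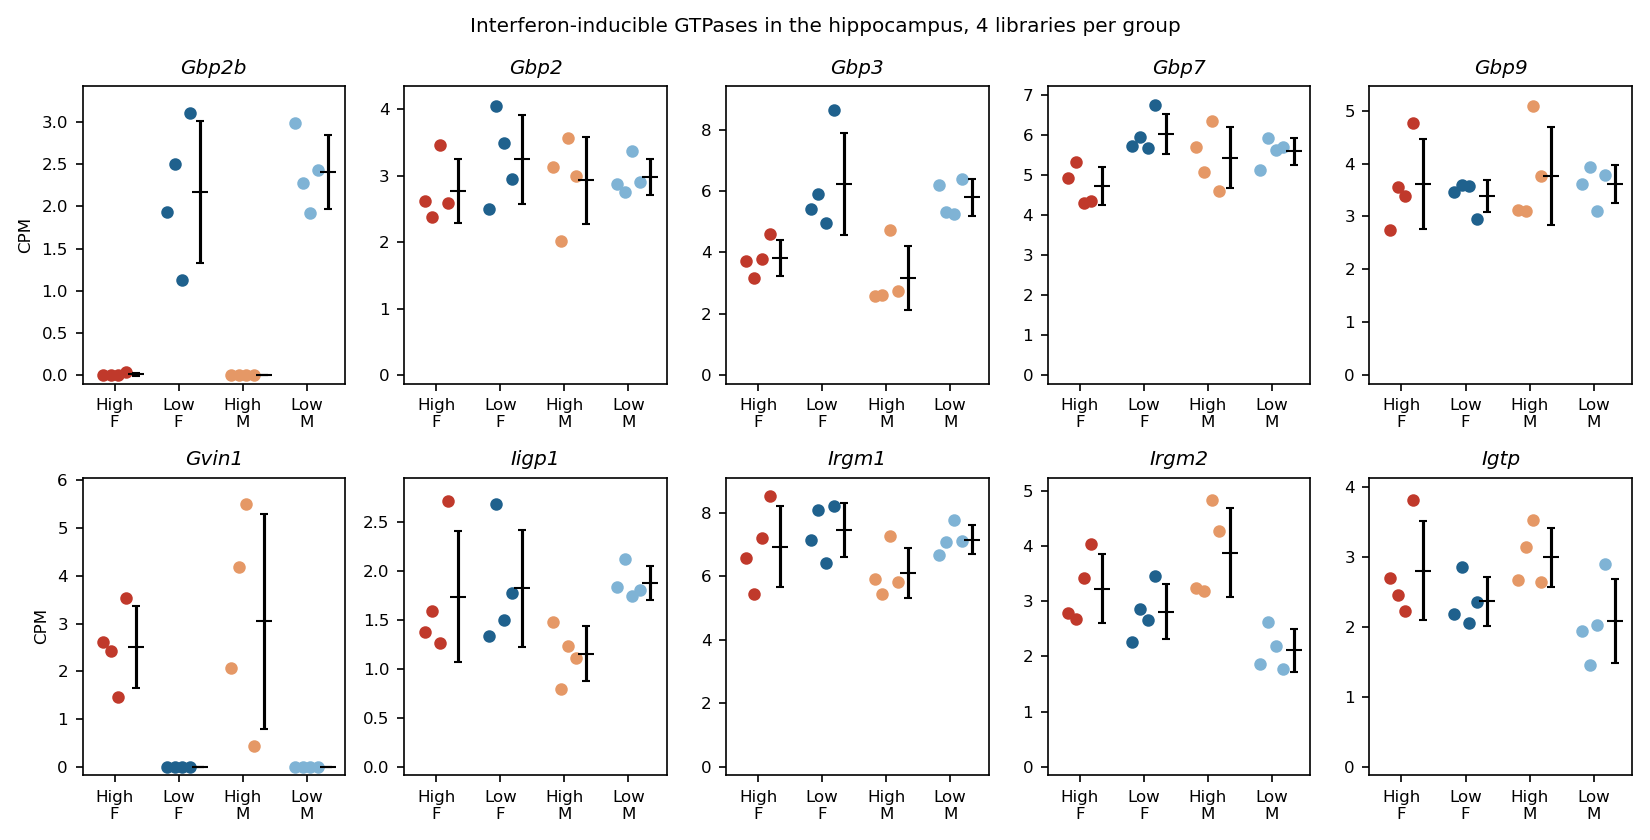
CPM of each of the 10 GTPase genes (vertical axis, linear, own scale per gene) in High and Low Activity females (F) and males (M). Each point is 1 library, and the black dash and bar are the mean and SD of 4 libraries. Gbp2b lies at 0 in 7 of 8 High Activity libraries, Gvin1 lies at 0 in all 8 Low Activity libraries, and Gbp3 is lower in High Activity mice of both sexes without overlap.

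Gvin1 encodes a GTPase far larger than the other members and lies on the minus strand of chr7:106156556-106215326 (GRCm38, ENSMUSG00000045868). High Activity females had 65, 64, 39 and 86 counts and High Activity males had 59, 89, 134 and 10 counts. All 8 Low Activity libraries had 0 counts. Taking 3 counts per group as the most that a group at 0 allows, Gvin1 was at least 87.8-fold higher in High Activity females and at least 105-fold higher in High Activity males.

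These counts rest on very few bases. The annotated transcript Gvin1-201 and the transcript Gm4070-201 of the neighbouring gene Gm4070 (chr7:105895139-105953967, minus strand) are both 8795 bases long and have the same base at 8792 positions. Written as the Gvin1 base, the position from 1 at the transcript's 5′ end and the Gm4070 base, the differences are G1895T, G4994A and C7165T, and all 3 lie in the coding part. The 41 bases around each difference are shown because they are the only places where a read can tell these transcripts apart. The capital is the differing base, read from the GENCODE M21 transcripts of the reference (GRCm38).
Gvin1, chr7:106163436-106163476, minus strand: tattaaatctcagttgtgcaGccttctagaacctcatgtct
Gm4070, chr7:105902019-105902059, minus strand: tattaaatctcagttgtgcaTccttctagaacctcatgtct
Gvin1, chr7:106160337-106160377, minus strand: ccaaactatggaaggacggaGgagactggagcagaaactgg
Gm4070, chr7:105898920-105898960, minus strand: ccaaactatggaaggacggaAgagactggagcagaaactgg
Gvin1, chr7:106158166-106158206, minus strand: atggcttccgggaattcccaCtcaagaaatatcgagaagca
Gm4070, chr7:105896749-105896789, minus strand: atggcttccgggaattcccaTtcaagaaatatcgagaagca

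Of the 8646 stretches of 150 bases (the read length) in Gvin1-201, 450 (5.20%) cover a differing base. Over all annotated transcripts of Gvin1, 96.2% of 150-base stretches also occur in another gene. Gm4070 had 87, 113, 119 and 23 counts in High Activity females and 60, 10, 117 and 78 in High Activity males. It had 103, 143, 115 and 160 counts in Low Activity females and 113, 120, 171 and 148 in Low Activity males. The part of the pair's counts given to Gvin1 ran from 11.4% (library 8) to 89.9% (library 6) within the High Activity males alone, and was 0% in each Low Activity library.

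Added together, Gvin1 and Gm4070 had 152, 177, 158 and 109 counts in High Activity females and 103, 143, 115 and 160 in Low Activity females. The sums in males were 119, 99, 251 and 88 (High) and 113, 120, 171 and 148 (Low). The groups overlapped in both sexes. The sum was 5.80 ± 0.94 CPM (SD, n = 4) in High and 4.92 ± 1.09 CPM in Low Activity females, and 5.72 ± 3.07 and 5.25 ± 0.83 CPM in males. The log2 difference of the sum was 0.24 (SE 0.23) in females and 0.12 (SE 0.23) in males. The male value turned on library 7, with 10.3 CPM against 3.76 to 4.65 CPM in the other High Activity males: without it the difference was -0.33 (SE 0.18), and without High Activity males 6 and 8 it was 0.45 (SE 0.23). Without each library in turn the female value was 0.14 to 0.38. The strain difference was thus seen in the counts given to Gvin1, and was not seen in the pair's total at this precision. The sum leaves out other genes that share 150-base stretches with Gvin1: 9130208D14Rik (7.27% of Gvin1 stretches), Gm8979 (5.70%) and Gm8989 (1.98%). Which locus the reads came from was not tested.

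**Figure D2:**
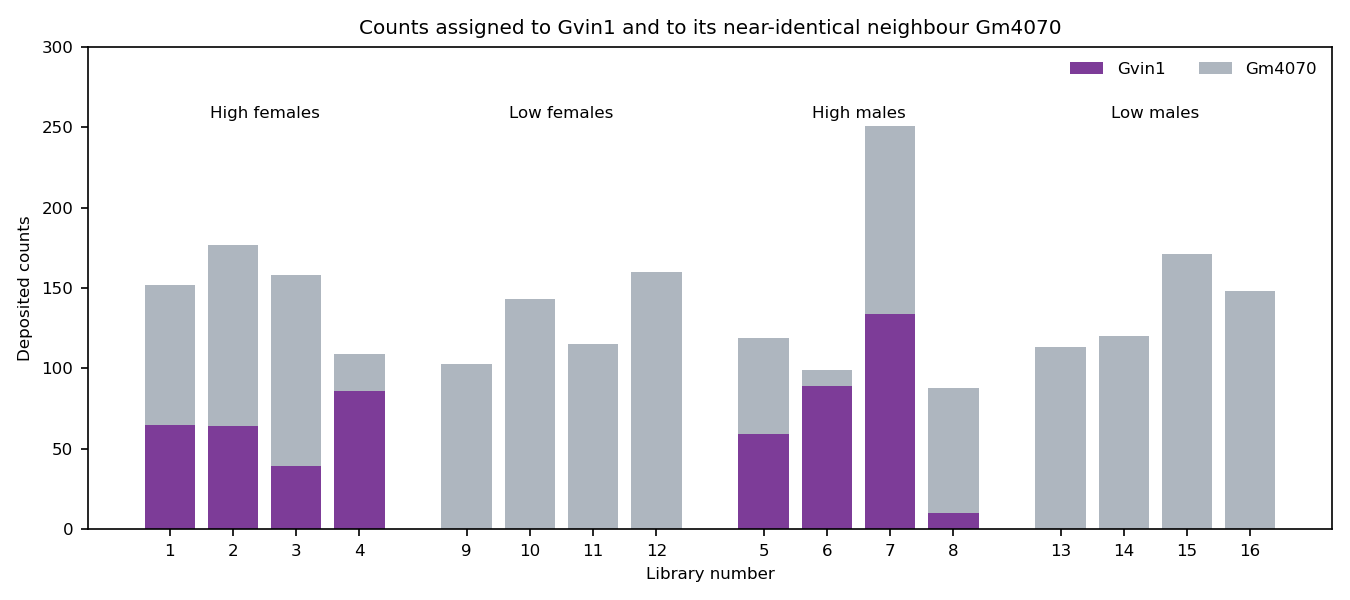
Deposited counts (vertical axis, from 0) given to Gvin1 (purple) and Gm4070 (grey), stacked, in each of the 16 libraries (horizontal axis, by group). Gvin1 takes between 11.4% and 89.9% of the pair in High Activity libraries and 0% in Low Activity libraries, while the stacked totals of the strains overlap.

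Gbp2b, a guanylate-binding protein gene long known in mouse as Gbp1, showed the opposite pattern and does not have this ambiguity. It lies on the plus strand of chr3:142594847-142619179 (ENSMUSG00000040264). High Activity females had 0, 0, 0 and 1 counts and High Activity males had 0 in all 4 libraries. Low Activity females had 52, 68, 30 and 79 counts and Low Activity males had 75, 58, 52 and 66. In females the Low to High ratio of summed counts was 221 (95% exact interval 39.2 to 8759, counting error only), and in males Gbp2b was at least 77.9-fold lower in High Activity mice.

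None of the 150-base stretches of Gbp2b occurs in another annotated transcript, and 1.84% of its 50-base stretches do, each of them in Gbp2. Gbp2 lies just downstream on the same strand (chr3:142620602-142638008, ENSMUSG00000028270) and is the closest of the members in place. It had 65, 63, 93 and 63 counts in High and 67, 110, 93 and 75 in Low Activity females. In males it had 89, 43, 87 and 70 (High) and 72, 70, 91 and 79 (Low). The strains overlapped in both sexes, with log2 differences of -0.23 (SE 0.19) and -0.02 (SE 0.19). Reads were aligned to a C57BL/6J reference, and whether reads of a diverged Gbp2b allele would still be counted was not tested.

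Among the 8 members expressed in both strains, Gbp3 was lower in High Activity mice without overlap in both sexes, which held for no other of the 8. It lies between Gbp7 and Gbp2b (chr3:142560026-142573209, plus strand, ENSMUSG00000028268). High Activity females had 3.71, 3.17, 3.80 and 4.61 CPM and Low Activity females had 5.42, 5.91, 4.96 and 8.65 CPM. High Activity males had 2.57, 2.63, 4.72 and 2.73 CPM and Low Activity males had 6.21, 5.31, 5.25 and 6.40 CPM. Every High Activity value was below every Low Activity value of the same sex. The log2 difference was -0.71 (SE 0.19) in females and -0.87 (SE 0.19) in males, and no 150-base stretch of Gbp3 is shared with another gene. Without High Activity males 6 and 8 the male difference was -0.68 (SE 0.22), and without library 7 it was -1.13.

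The remaining guanylate-binding proteins differed less. Gbp7, linked in mouse macrophages to autophagy and oxidase assembly (chr3:142530342-142550149, plus strand, ENSMUSG00000040253), had 4.92, 5.32, 4.32 and 4.36 CPM in High and 5.72, 5.94, 5.67 and 6.76 CPM in Low Activity females. The female groups did not overlap, with a log2 difference of -0.35 (SE 0.13). Of the 150-base stretches of Gbp7, 8.77% also occur in the gene Gm43802, whose counts were not added. In males Gbp7 had 5.70, 5.07, 6.36 and 4.61 CPM (High) and 5.13, 5.94, 5.62 and 5.70 CPM (Low), which overlapped, with a difference of -0.04 (SE 0.13). Gbp9, from the chromosome 5 cluster (chr5:105077630-105139539, minus strand, ENSMUSG00000029298), overlapped in both sexes at 2.74 to 5.09 CPM over all 16 libraries. Its log2 differences were 0.09 (SE 0.18) in females and 0.06 (SE 0.18) in males.

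Among the immunity-related GTPases, Irgm2 was higher in High Activity males. GENCODE draws the gene over chr11:58199618-58222782 (plus strand, ENSMUSG00000069874), a span that overlaps Igtp, although 0.437% of its 150-base stretches are shared with another gene. High Activity males had 3.24, 3.19, 4.84 and 4.27 CPM and Low Activity males had 1.87, 2.63, 2.18 and 1.77 CPM, without overlap and with a log2 difference of 0.88 (SE 0.20). Females had 2.78, 2.68, 3.42 and 4.03 CPM (High) and 2.27, 2.86, 2.67 and 3.46 CPM (Low), which overlapped, with a difference of 0.20 (SE 0.19). Without High Activity males 6 and 8, and with Low Activity males 14 and 16 kept, the male difference was 0.93 (SE 0.24). Haemoglobin also differed between the male groups without overlap, and its part in the differences between male groups was not tested.

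Igtp (chr11:58199556-58207591, plus strand, ENSMUSG00000078853) had the same direction with overlapping groups. It had 2.70, 2.45, 2.23 and 3.83 CPM in High and 2.19, 2.86, 2.07 and 2.36 CPM in Low Activity females. In males it had 2.67, 3.15, 3.53 and 2.65 CPM (High) and 1.95, 1.46, 2.03 and 2.91 CPM (Low). The log2 differences were 0.24 (SE 0.21) and 0.52 (SE 0.21). Irgm1, a regulator needed in mice for resistance to mycobacteria (chr11:48861968-48871683, minus strand, ENSMUSG00000046879), overlapped in both sexes between 5.44 and 8.52 CPM. Its differences were -0.11 (SE 0.13) in females and -0.23 (SE 0.13) in males.

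Iigp1, the effector of the group (chr18:60376027-60392634, plus strand, ENSMUSG00000054072), was lower in High Activity males. They had 1.48, 0.798, 1.23 and 1.11 CPM against 1.83, 2.12, 1.74 and 1.80 CPM in Low Activity males. These groups did not overlap, the log2 difference was -0.69 (SE 0.27), and without High Activity males 6 and 8 it was -0.46 (SE 0.33). Females overlapped at 1.37, 1.59, 1.27 and 2.72 CPM (High) and 1.34, 2.68, 1.50 and 1.77 CPM (Low), with a difference of -0.07 (SE 0.26). In males the regulators Irgm2 and Igtp thus had the opposite sign to Iigp1, and the regulator Irgm1 had the same sign. This rests on Iigp1 alone, so no split between regulators and effectors is read from it. Other genes of the family near Irgm1, named after their values were seen, went both ways in males. Tgtp1 differed by 0.64 (SE 0.35), Tgtp2 by 0.38 (SE 0.40) and Ifi47 by -0.20 (SE 0.34).

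**Figure D3:**
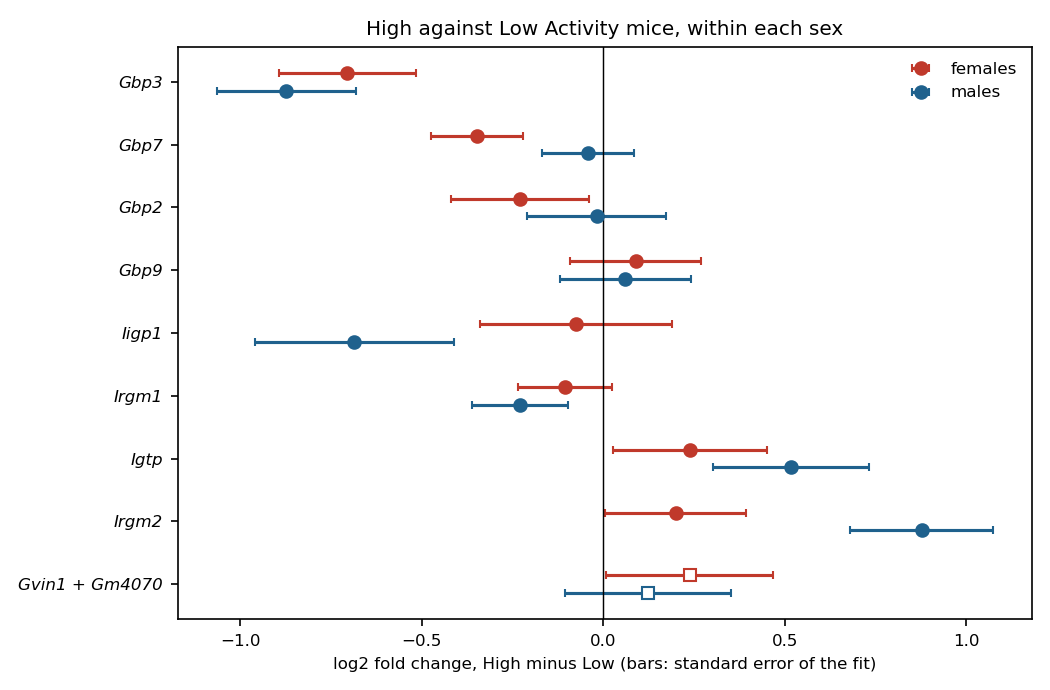
Log2 fold change, High minus Low Activity, of the 8 members counted in both strains (circles) and of the summed Gvin1 and Gm4070 counts (squares), with the standard error of the edgeR fit, in females (red) and males (blue). Gbp3 lies at -0.71 and -0.87, Irgm2 at 0.20 and 0.88, and the summed pair at 0.24 and 0.12.

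Groups did not overlap for 4 of 10 members in females (1 higher and 3 lower in High Activity mice), where 13.8% of all genes did not overlap (6.96% higher and 6.79% lower), and for 5 of 10 in males (2 higher and 3 lower), where 9.53% did not (4.41% higher and 5.12% lower). Nothing is read from these counts, which include Gvin1 and Gbp2b, because the same contrasts chose the genes. Summed over the 8 members expressed in both strains, the level was 29.6 ± 4.0 CPM in High and 33.4 ± 3.7 CPM in Low Activity females, and 29.4 ± 4.9 and 31.2 ± 0.91 CPM in males (SD, n = 4 each). The ranges overlapped in both sexes, 26.6 to 35.4 against 30.0 to 37.1 CPM in females and 25.4 to 36.6 against 30.2 to 32.4 CPM in males. Of these 8 members, Gbp2, Gbp3, Gbp7, Iigp1 and Irgm1 had negative log2 differences in both sexes, and Gbp9, Irgm2 and Igtp had positive ones. Several lay near 0 and turned sign when libraries were left out: Gbp2 in males (-0.13 to 0.17 over the alternatives), Gbp7 in males (-0.13 to 0.10), Iigp1 in females (-0.37 to 0.17), Irgm1 in females (-0.21 to 0.0025) and Gbp9 in both sexes (-0.06 to 0.20 in females and -0.12 to 0.18 in males). Gbp3, Irgm2 and Igtp kept their sign in both sexes under each of 24 alternatives.

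Levels were compared between genes per kilobase of exon (CPM per kb, mean ± SD, n = 4), and their order differed between the strains. Igtp was highest in High Activity females (1.39 ± 0.35) and males (1.48 ± 0.21), and Gbp3 in Low Activity females (1.91 ± 0.51) and males (1.77 ± 0.18). Irgm1 (group means 1.05 to 1.28), Gbp2 (1.10 to 1.29), Gbp7 (0.843 to 1.07), Irgm2 (0.573 to 1.05) and Gbp9 (0.656 to 0.728) came lower, with Iigp1 (0.198 to 0.322) near the bottom of every group. Gbp2b stood at 0.767 ± 0.30 and 0.852 ± 0.16 in Low Activity females and males, above Gbp9, and Gvin1 at 0.278 ± 0.095 and 0.338 ± 0.25 in High Activity females and males, beside Iigp1. From the highest gene down to Gbp9 or Irgm2, each gene was nearer to the next than the sum of their SDs in every group, except Gbp3 against Irgm1 in Low Activity males.

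Sex was the comparison that the choice of genes did not use. Gbp2b, with 1 count over the High Activity strain, and Gvin1, with 0 over the Low Activity strain, could not have been called there and are left out of these counts. No other member was called between males and females of the High Activity strain (0 of 9, against 0.0344% of all genes, edgeR) or of the Low Activity strain (0 of 9, against 0.235%). The smallest adjusted p was 0.817 in High and 0.478 in Low Activity mice. At an unadjusted p under 0.05 there was 1 of 9 members in each strain, where 4.78% of all genes in High and 10.3% in Low Activity mice passed, and nothing is read from these counts. The log2 difference, male minus female, was -0.57 (SE 0.28) for Iigp1 in High and -0.41 (SE 0.20) for Irgm2 in Low Activity mice. DESeq2 and limma-voom also called 0 of 9 in both strains.

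The difference in strain effect between females and males was tested as an interaction, and 0 of the 8 members expressed in both strains passed (0% of all genes passed in edgeR). The interaction is the difference of the contrasts that chose the members, and no gene passed it in edgeR. Nothing is therefore read from the count of 0. The interaction could not be tested for Gvin1 and Gbp2b, which were near 0 in both sexes of a strain. Irgm2 had the smallest p of the members, with a female minus male strain effect of -0.68 on the log2 scale (SE 0.28, adjusted p = 0.396, edgeR), and was the only 1 of 8 at an unadjusted p under 0.05, which 10% of all genes passed. DESeq2 and limma-voom called 0 of 8 members as well. The strain differences without overlap in a single sex (Irgm2 and Iigp1 in males, Gbp7 in females) are thus not shown to differ between the sexes.

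Promoter windows from RefSeq (GRCm38.p6, 250 bases before to 50 bases after each start) were found for 7 of the 10 members, and Gbp9, Gvin1 and Iigp1 had no entry. The ISRE core was searched as GAAANNGAAA and on the other strand as TTTCNNTTTC, and GAS as TTCNNNGAA, which reads the same on both strands. The ISRE core occurred in all 7 genes with a window, against 3.44% of the 32851 promoter windows, and GAS in 3 genes (Gbp7, Igtp and Irgm2), against 8.3%. The first base of the ISRE core lay 137 bases before the start in Gbp2b, 59 in Gbp2, 53 in Gbp7, 64 in Irgm2 and 34 in Igtp, and Gbp3 (45 and 39) and Irgm1 (30 and 24) each held an overlapping pair. Gbp3 has a second RefSeq window without a match. Matches are letters of the C57BL/6J reference and describe the genes, not the alleles of these mice.

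Up to 160 bases before the RefSeq start are shown for 5 members, to set the gene that was near 0 in High Activity mice (Gbp2b) beside its neighbour that was not (Gbp2), with Gbp3 and the adjacent pair Irgm2 and Igtp. Capitals mark the ISRE core in either orientation. GENCODE and RefSeq place some starts differently: the Gbp2 stretch ends short of the RefSeq start, its last 20 bases and ISRE core lie in a GENCODE exon, 18 bases of the Gbp3 stretch do too, and the Irgm2 stretch lies within the wider span that GENCODE draws for that gene.
Gbp2b, chr3:142594687-142594846, plus strand: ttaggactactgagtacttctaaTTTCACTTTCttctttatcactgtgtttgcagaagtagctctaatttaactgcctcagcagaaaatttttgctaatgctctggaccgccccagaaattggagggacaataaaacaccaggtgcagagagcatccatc
Gbp2, chr3:142620503-142620621, plus strand: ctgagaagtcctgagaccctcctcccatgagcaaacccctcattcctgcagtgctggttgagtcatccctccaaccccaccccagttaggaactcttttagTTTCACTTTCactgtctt
Gbp3, chr3:142559884-142560043, plus strand: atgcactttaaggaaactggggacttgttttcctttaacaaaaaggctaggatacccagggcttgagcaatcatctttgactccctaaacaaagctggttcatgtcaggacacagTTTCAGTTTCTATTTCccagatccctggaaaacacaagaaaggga
Irgm2, chr11:58214817-58214976, plus strand: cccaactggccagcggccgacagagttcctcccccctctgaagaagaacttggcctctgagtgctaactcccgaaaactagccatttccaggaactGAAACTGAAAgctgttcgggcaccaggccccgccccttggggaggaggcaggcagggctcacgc
Igtp, chr11:58199396-58199555, plus strand: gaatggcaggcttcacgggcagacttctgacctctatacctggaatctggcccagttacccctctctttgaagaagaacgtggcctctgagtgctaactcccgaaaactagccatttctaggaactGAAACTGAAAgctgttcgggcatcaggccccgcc

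Gbp2b and Gbp2 carry the same 10 letters at different distances from their starts. Laid over each other at the ISRE core, the Irgm2 and Igtp stretches have 107 of 130 bases in common, with an identical run of 38 bases, and in both a GAS match lies just before the ISRE core.

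Other GTPases of these families were followed as a list of 28 genes, 25 of them in the table. This list and the pathway lists below were chosen with earlier results of these data known. Their counts are a description, and nothing is read from setting them against all genes. In females 2 were higher and 1 lower in High Activity mice, and in males 4 were higher and 1 lower (adjusted p under 0.05, edgeR; 15 of the 25 passed the filter on low counts). The female count of higher genes was 1 without library 4, 9 or 12 and 3 without library 2, 7 or 8, without High Activity males 6 and 8 or with limma-voom, which also gave 2 lower. The male count of lower genes was 2 without library 5, 7 or 15 and with DESeq2 or filterByExpr. The male count of higher genes was 3 without library 5, 7, 8, 13, 14, 15 or 16. It was also 3 without High Activity males 6 and 8 and with DESeq2 or filterByExpr. Of all genes, 3.7% rose and 3.55% fell in females, and 2.78% rose and 3.25% fell in males. Gbp6, a guanylate-binding protein of the chromosome 5 cluster, fell by 2.67 on the log2 scale in females (SE 0.48, adjusted p = 0.000429) and by 2.21 in males (SE 0.45, adjusted p = 0.00177). Gbp11 rose by 2.57 (SE 0.39, adjusted p = 4.64e-05) and 4.02 (SE 0.43, adjusted p = 2.31e-07). Gm43302 rose by 1.87 (SE 0.51) and 2.72 (SE 0.58), and Gbp4 was 0.93 (SE 0.31, adjusted p = 0.0679) higher in females and rose by 1.58 (SE 0.31, adjusted p = 0.00118) in males. Gm1966, named after its values were seen, was the other gene called in males and had 1 to 5 counts in each High and 0 in each Low Activity library.

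The opposite signs of Gbp6 and Gm43302 carry the same limit as Gvin1. GENCODE draws Gm43302 over Gbp6 and Gbp10, and 97.6% of its 150-base stretches and 59.1% of those of Gbp6 occur in another gene. Summed, Gbp6, Gm43302 and Gbp10 had 47 to 101 counts in High against 78 to 115 in Low Activity females, and 39 to 72 against 86 to 112 in males. The sums overlapped in females and were lower in High Activity males without overlap. For Gbp4 and Gbp11, 0.0254% and 0.0786% of such stretches are shared, so this limit is small for them at 150 bases. Of their 50-base stretches, 7.70% and 19.2% occur in another gene. Whether diverged alleles affected their counts was not tested.

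Upstream of the GTPases, 14 interferon and receptor genes were listed and 8 were in the table. With all libraries and no filter, edgeR called 0 in either sex. In females 1 was called lower, the receptor gene Ifngr2, by DESeq2, with filterByExpr, without composition factors, and without library 6, 10, 13, 15 or 16 or High Activity males 6 and 8. In males 1 was called lower, by limma-voom alone (Ifnk, named after its values were seen). Ifng, the ligand that induces these GTPases most strongly, had 1 count in a single High Activity female library and 0 in the other 15. The best counted receptor genes were Ifngr2 (54.6 to 63.9 CPM as group means; log2 difference -0.18 in females, adjusted p = 0.053, edgeR) and Ifnar1 (42.2 to 44.7 CPM).

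Among 26 signal transducers, 2 fell in High Activity females, where 7.26% of all genes were called, and in males, where 6.04% were, 1 rose and 2 fell. All 26 passed the low-count filter, which many of all genes did not. With that filter, 2 rose and 3 fell in females, where 2740 of 17805 genes were called. In males 1 rose and 2 fell with it, where 2211 of 17805 were called. Irf9, a DNA-binding subunit of the complex that binds the ISRE, fell by 0.36 in females (SE 0.11, adjusted p = 0.0406) and by 0.63 in males (SE 0.11, adjusted p = 0.000274). Irf7, which amplifies type I interferon production, fell by 1.08 in females (SE 0.29, adjusted p = 0.0175) and differed by -0.82 in males (SE 0.29, adjusted p = 0.108). Usp18, a feedback inhibitor that is itself interferon-induced, differed by -0.95 in females (SE 0.31, adjusted p = 0.0606) and fell by 1.21 in males (SE 0.33, adjusted p = 0.024). Ptpn2, a phosphatase that acts on Jak kinases, rose by 0.36 in males (SE 0.09, adjusted p = 0.00876) and not detectably in females (0.10, SE 0.09, adjusted p = 0.58). Without High Activity males 6 and 8, 0 transducers rose and 1 fell in males, and 1 fell there without library 5, 6, 13, 14 or 16. In females none fell without library 2 or 11 and 1 fell without library 3, 4, 10 or 12.

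The other interferon-stimulated genes on the list that were called were all lower in High Activity mice. The list was chosen with earlier results of these data known, so its counts and median are a description and not a test. Of 51 genes on the list, 11 fell and 0 rose in High Activity females, and 8 fell and 0 rose in High Activity males, where 3.55% and 3.25% of all genes fell. Those shares include genes with few counts, and 46 of the 51 passed the low-count filter. With that filter, 15 of 46 fell in females and 9 of 46 in males, and 0 rose. Of the 17805 genes tested with it, 2740 were called in females and 2211 in males, in either direction. The median log2 difference was -0.36 in females and -0.29 in males, against 0 for all genes, and 40 and 38 of the 51 were below 0. Ifit3, an antiviral protein, fell by 1.89 (SE 0.29, adjusted p = 5.26e-05) in females and 1.69 (SE 0.29, adjusted p = 0.000276) in males. Ifi27l2a fell by 2.31 (SE 0.48, adjusted p = 0.00195) in females and fell by 2.41 (SE 0.50, adjusted p = 0.00222) in males. Ifitm3, which blocks viral entry, fell by 0.56 (SE 0.12, adjusted p = 0.00369) and 0.50 (SE 0.12, adjusted p = 0.0118). Ifit1, which binds foreign RNA caps, fell by 1.43 (SE 0.34, adjusted p = 0.00667) and 1.49 (SE 0.36, adjusted p = 0.00848).

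Cell type markers also differed between the strains. Astrocyte markers (6 genes) summed to 5182 to 5385 CPM in High and 4109 to 4335 CPM in Low Activity females, and to 4354 to 5488 and 4141 to 4273 CPM in males, without overlap in either sex, and 3 of 6 rose in each sex (Aldh1l1, Gja1 and Slc1a2). Of 8 microglial markers, Tmem119 and C1qa fell in females and Tmem119 fell in males, while their summed level overlapped (345 to 400 against 380 to 401 CPM in females and 356 to 407 against 372 to 404 CPM in males). Of 8 endothelial markers, 1 rose and 1 fell in females and 2 rose in males. All 4 haemoglobin genes and 3 of 6 thalamus and habenula markers rose in males and 0 fell, and in females 0 of either list were called. Of 8 hippocampal markers, 1 rose in females and 2 in males, and 0 fell. Of all genes, 3.7% rose and 3.55% fell in females, and 2.78% rose and 3.25% fell in males. No marker of these lists was at 0, and their part in the differences of the GTPases and the other interferon-stimulated genes was not tested.

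The count of 8 falling interferon-stimulated genes in males ran from 4 to 11 when single libraries were left out. It was 4 without library 5, 13 or 16, 5 without library 8 and 11 without library 7. It was 6 without High Activity males 6 and 8 and with limma-voom. The female count was 8 to 13 when single libraries were left out.

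Among 26 partner genes (25 in the table), which load the GTPases onto membranes, modify them or act with them in inflammasomes, 1 rose and 3 fell in females (7.26% of all genes called) and 1 rose and 1 fell in males (6.04% called). Pycard, the inflammasome adaptor, rose by 1.49 in females (SE 0.22, adjusted p = 3.72e-05) and 1.66 in males (SE 0.22, adjusted p = 7.59e-06). Gabarapl1 fell by 0.18 in females (SE 0.05, adjusted p = 0.012) and Atg12 by 0.17 (SE 0.05, adjusted p = 0.0393), both of them autophagy proteins; in males they differed by -0.10 (adjusted p = 0.233) and -0.11 (adjusted p = 0.271). The other calls, named after their values were seen, were the autophagy genes Map1lc3a (-0.20, adjusted p = 0.0314) in females and Atg16l1 (-0.17, adjusted p = 0.0499) in males. The falls in this list were 0 to 3 in females (0 without library 2, and 1 without library 1, 3, 4, 9 or 12) and 0 to 2 in males when single libraries were left out, while the rise of Pycard was called each time. In males they were 2 without library 5 or 7, 1 without library 14 and 0 without any other library. They were also 0 there with RLE or upper-quartile factors, with the length offset and without High Activity males 6 and 8. With the low-count filter, 2 of 24 genes rose and 3 fell in females, and 1 rose and 1 fell in males.

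**Figure D4:**
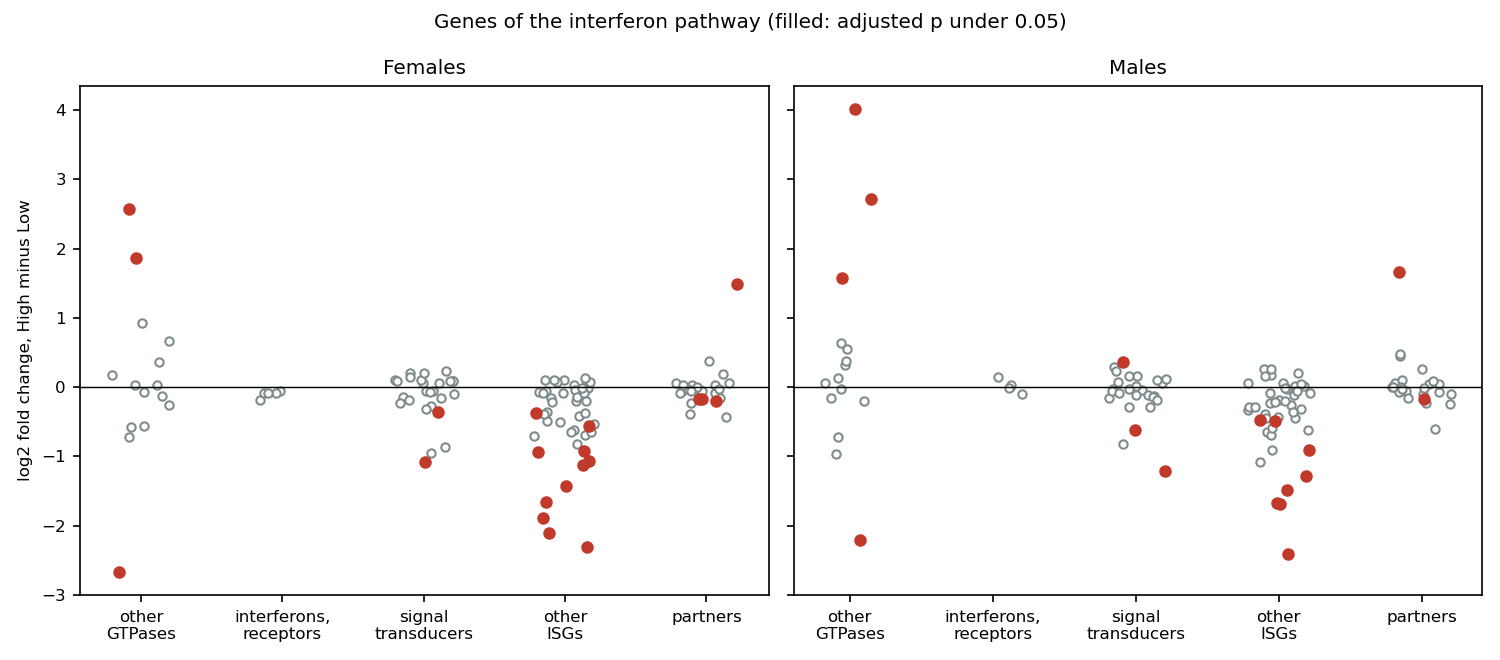
Log2 fold change, High minus Low Activity (vertical axis), of each listed pathway gene that passed the low-count filter (15 other GTPases, 5 interferon and receptor genes, 26 transducers, 46 other interferon-stimulated genes (ISGs) and 24 partners), in females (left) and males (right). Filled points had an adjusted p under 0.05 (edgeR); all filled points among the other interferon-stimulated genes lie below 0, while those of the other GTPases lie on both sides.

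The protein-coding genes next to the members (start within 500 kb) also differed at some loci. Genes of other types were not included. By the test of any strain effect, which 10.3% of all genes passed, 2 of 5 neighbours passed on chromosome 3, 5 of 9 on chromosome 5, 2 of 7 on chromosome 7, 0 of 19 around Irgm1, 3 of 24 around Igtp and Irgm2, and 3 of 12 on chromosome 18. With the low-count filter, 3645 of 17805 genes passed this test, a larger share. Both shares cover genes of all types, and the share among protein-coding genes alone was not computed. Around Gbp2b the neighbours that passed were Pdlim5 (0.36 higher in High Activity females, adjusted p = 0.00130, edgeR, and 0.20 in males, adjusted p = 0.119) and Pkn2 (0.28 in females, adjusted p = 0.00752, and 0.10 in males, adjusted p = 0.468), while Gbp5 did not pass (adjusted p = 0.551 for any strain effect). On chromosome 5 the neighbours that passed were led by Gbp6, Gm43302 and Gbp4. On chromosome 7 they were Tpp1 and Taf10, near Igtp and Irgm2 they were Larp1, Sh3bp5l and Sap30l, and near Iigp1 they were Dctn4, Rbm22 and Ndst1.

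The variation from mouse to mouse within groups was compared for the 8 members expressed in both strains. After group means were removed from log2 CPM, all 28 pairs of members had a correlation above 0 over the 16 libraries (median 0.41, from 0.036 to 0.73), given as a description of libraries that share depth and dissection. Some pairs were near 0: Gbp7 had 0.036 with Gbp9, 0.065 with Igtp and 0.066 with Gbp2, and Igtp had 0.053 with Gbp2 and 0.069 with Irgm2. The highest was Gbp3 with Irgm1, and other genes' pairs were not computed. Library 7, a High Activity male, was 0.29 above its group mean on average with all 8 members above it, and library 4, a High Activity female, was 0.25 above with 6 of 8. Library 6, a High Activity male with the most thalamus and habenula marker signal, was 0.19 below its group mean. The 4 Low Activity males lay within 0.05 of their mean.

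**Figure D5:**
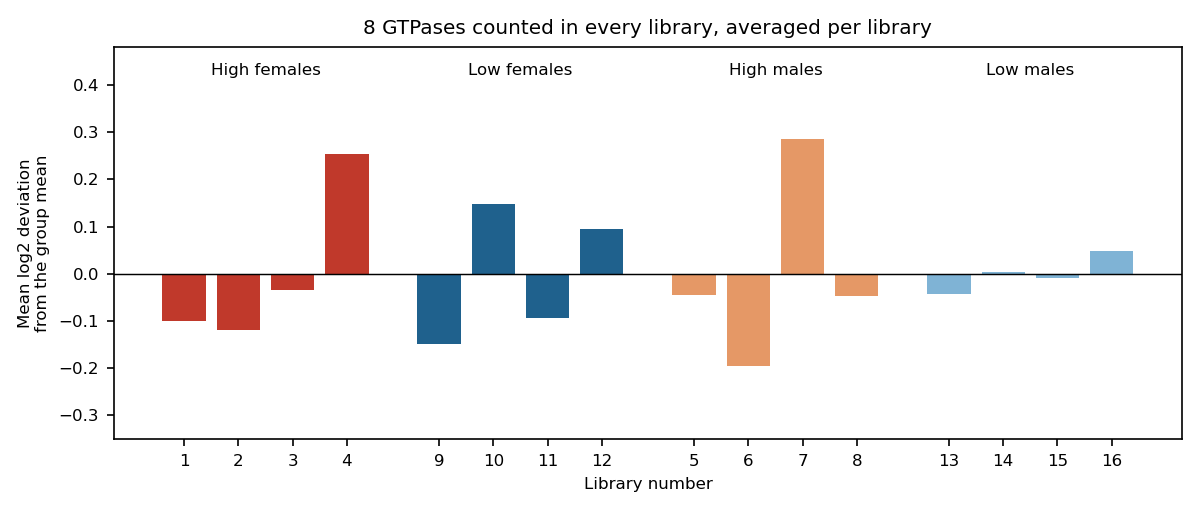
Mean deviation from the group mean, in log2 CPM, over the 8 GTPase genes counted in every library (vertical axis), for each of the 16 libraries (horizontal axis, by group). Libraries 4 and 7 stand highest, at 0.25 and 0.29, and library 6 lowest, at -0.19.

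Of 13741 protein-coding genes with a mean of at least 1 CPM, those whose deviations most resembled the mean of the 8 members over the 16 libraries were Zfp984 (r = 0.86), Dffb (r = 0.83), Gbp6 (r = 0.83), Nxpe4 (r = 0.82) and Birc3 (r = 0.81). They were selected as the highest of many values.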

How the data were processed

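Paired-end reads of 150 bases came from strand-specific polyadenylated RNA libraries of 16 hippocampal samples. Per the labels and the study's methods, the authors aligned reads with HISAT2 to mm10, estimated gene-level counts with RSEM on an Ensembl annotation, removed genes at 0 in every sample and tested with DESeq2 1.30.1. The deposited values are RSEM expected counts given as whole numbers; the strand setting of the counting is not given in the sources used here. RSEM divides reads that match several genes by a model, and alignment used a C57BL/6J reference, so counts of near-identical or diverged genes depend on these choices. The labels name no batch.

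Counts were tested with edgeR 4.0.16 (quasi-likelihood, TMM factors, no low-count filter, 1 coefficient per group) over 31960 genes with Benjamini-Hochberg adjustment, in R 4.3.3; the contrasts were High minus Low within each sex, any strain effect, their interaction and male minus female within each strain. Standard errors are those of the fitted log2 fold changes. Symbols came from GENCODE M21, and promoters from RefSeq (GRCm38.p6). The alternatives were other scaling factors, filterByExpr (17805 genes), DESeq2 1.42.0, limma-voom (limma 3.58.1), a transcript length offset, and leaving out each library or High Activity males 6 and 8; adding Gvin1 and Gm4070, and leaving out libraries from that sum, were chosen after seeing the data. The pipeline was tested on simulated data for females, where, of 50 genes each, 94% raised by 1, 84% lowered by 1 and 56% raised by 0.5 on the log2 scale were recovered. The changed genes were drawn from all that passed filterByExpr, and every gene had the same spread between mice (coefficient of variation 10.6%). Recovery at the low counts and the spread of the members was not estimated. Libraries held 20815456 to 28760896 counts, and intervals cover counting error only.

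The 10 members and all lists were chosen with earlier results of these data known. Named list genes are the 2 to 4 with the smallest any-strain p among those with adjusted p under 0.05, or the 2 with the highest mean CPM where none passed; neighbours are the 3 with the smallest such p per locus; near 0 means at most 3 counts in every library of a strain. Stretches of 50 and 150 bases were compared by exact match against all annotated transcripts.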

Additional observations from a re-analysis of the deposited data

Results flagged for a closer look

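Among 40 combinations of member and group, 2 had a library far from its 3 others by Dixon's test. Combinations at 0 in every library (Gbp2b in High Activity males, Gvin1 in Low Activity females and males) could not be tested. Chance gives about 1 in 20 for values that vary continuously, which those of a group near 0 do not. The Gbp2b value of High Activity female library 4, 0.0411 CPM, is its single count beside 3 libraries at 0, which is flagged whatever its size. The Gbp3 value of High Activity male library 7, 4.72 CPM, lay above the 2.57 to 2.73 CPM of the other 3, and that library also had all 8 members expressed in both strains above its group mean. Without library 7 the male log2 difference of Gbp3 was -1.13.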

How the results depend on the processing

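No paired analysis was possible because the labels number the libraries 1 to 16 without sharing numbers between groups. No log2 difference of a called member reversed under any alternative; of the members' values under the alternatives, 465 moved by less than 1 SD and 17 by more, most of them Gbp2b and Gvin1 fits, which depend on how a group at 0 is handled (6.81 to 9.66 for Gvin1 in males), and the summed pair (0.24 in females, 0.12 in males; -0.33 to 0.28 in males without single libraries). Gbp7 in males was 0.10 and Iigp1 in males -0.46 without High Activity males 6 and 8. The number of genes called for the interaction was 0, but 154 with DESeq2 and 2 without males 6 and 8, and for male minus female in Low Activity mice it was 75, but 49 without composition factors, 339 with DESeq2, 27 with a length offset and 523 without males 6 and 8; the cause was not tested. Leaving out single libraries gave 1702 to 2574 genes for High minus Low in females, 1473 to 2234 in males, 2764 to 3669 for any strain effect, 10 to 28 and 19 to 187 for male minus female in High and Low Activity mice, and 0 to 202 for the interaction. No member was called for sex or interaction under any of these. Depth limits the members: Iigp1 had 17 to 73 counts per library, and its SEs were 0.26 and 0.27 on the log2 scale.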
